A study of Mus musculus with 16 samples.

Results

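The genes described here encode 10 integrin chains through which cells grip the extracellular matrix: the collagen-binding alpha chains Itga1, Itga2, Itga10 and Itga11, the laminin-binding alpha chain Itga7, the alpha chains Itga5 and Itgav of receptors for fibronectin and vitronectin, and the beta chains Itgb1, Itgb3 and Itgb5. They were taken by symbol from the table of read counts, and all 10 of the 10 symbols were found among its 49568. Bulk RNA-seq was performed on flexor tendon of 2 inbred mouse strains, C57BL/6J (C57) and MRL/MpJ (MRL), the latter known for healing several tissues with little scarring. In each strain 4 uninjured tendons were compared with 4 tendons at 7 days post-injury (dpi), the injury being a partial laceration through 50% of the deep digital flexor tendon of a hind paw digit. The methods describe male mice of 9 to 11 weeks of age, and RNA taken from single tendons. By the same methods the sheath and other tissue around the tendon was left in the samples because of its size. The injured libraries are called by the names in their labels, which are BI-181, BI-183, BI-184, BI-185 (C57) and BI-270, BI-272, BI-274, BI-275 (MRL).

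Integrins are receptors of 1 alpha and 1 beta chain that bind matrix outside the cell and, through talin and kindlin, the actin cytoskeleton inside it. In tendon they tie tenocytes to the collagen fibrils that carry load, and cells that enter a wound use them to hold the fibronectin-rich matrix laid down there. The Itgb1 chain is the common partner of the collagen-, laminin- and many fibronectin-binding alpha chains, whereas Itgb3 and Itgb5 pair with Itgav.

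Total counts ranged from 12552424 to 23741648 per library, and levels are given as CPM, counts scaled to a common library size. The floor used for detection, 3 counts, stood for 0.124 to 0.239 CPM. The injured MRL libraries were the deepest, at 18524170 counts or more. All 9 of the 9 tenocyte markers passed the filter on low counts in each comparison, and their sum lay between 31400 and 102000 CPM. In 3 libraries the markers of another tissue stood apart. The 12 epidermal markers summed to 112200 CPM in uninjured C57 replicate 4, against 42.5 to 1202 CPM in the other libraries, and the 12 skeletal muscle markers summed to 82220 CPM in BI-181 and 2289 CPM in BI-183, against 7.97 to 22.8 CPM elsewhere. Values without these libraries are given beside the results they moved most. In bulk tissue, fewer cells of a type and less RNA per cell cannot be told apart.

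Levels of different genes were compared as CPM per kilobase of exon. Itgb1, Itgb5 and Itga5 held the highest 3 places in all 4 groups. In uninjured C57 tendon the mean level of Itgb5 was 136 ± 31.9 CPM per kb (SD, n = 4), that of Itgb1 was 115 ± 32.0 and that of Itga5 was 32.8 ± 15.5. The ranges of Itgb5 and Itgb1 overlapped, while every library had more Itgb1 than any had Itga5. The uninjured MRL tendons had the same order, with 160 ± 29.3 CPM per kb of Itgb5, 119 ± 5.66 of Itgb1 and 33.4 ± 6.80 of Itga5.

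The other 7 chains formed a lower tier in the uninjured tendons of both strains, from Itga11 at 7.03 ± 2.16 CPM per kb in C57 and 8.54 ± 2.55 in MRL downward. Itgav followed at 5.15 ± 0.378 and 5.38 ± 0.362 CPM per kb, and Itga10 at 4.07 ± 2.21 and 4.63 ± 1.57. The ranges of these 3 neighbours overlapped in C57, as did those of Itga11 and Itgav and of Itgav and Itga10 in MRL. Itga2 and Itga1 lay between 1.51 and 1.88 CPM per kb on average in both strains. Itgb3 and Itga7 were lowest, at 0.788 ± 0.607 and 0.637 ± 0.620 CPM per kb in C57 and 0.351 ± 0.298 and 0.110 ± 0.197 in MRL.

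Among the collagen-binding alpha chains, Itga11, which binds fibrillar collagen on fibroblasts, made up 50.4% ± 6.52 of the summed level per kb in uninjured C57 tendon and 50.2% ± 10.9 in uninjured MRL tendon. In injured tendon its share was 60.5% ± 8.08 in C57 and 66.6% ± 5.50 in MRL. The shares in injured and uninjured libraries overlapped in both strains. Itga10, whose receptor is known from cartilage, made up 26.1% ± 10.7 and 27.2% ± 6.21 in the uninjured tendons and 22.2% ± 7.99 and 17.2% ± 5.39 in the injured ones. These shares depend on the exon length used, which for Itga1 was 18599 bases against 10967 in its longest transcript. Another gene, Gm42957, also shares 33.5% of the exon bases of Itga10, whose reads may be undercounted.

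**Figure D1:**
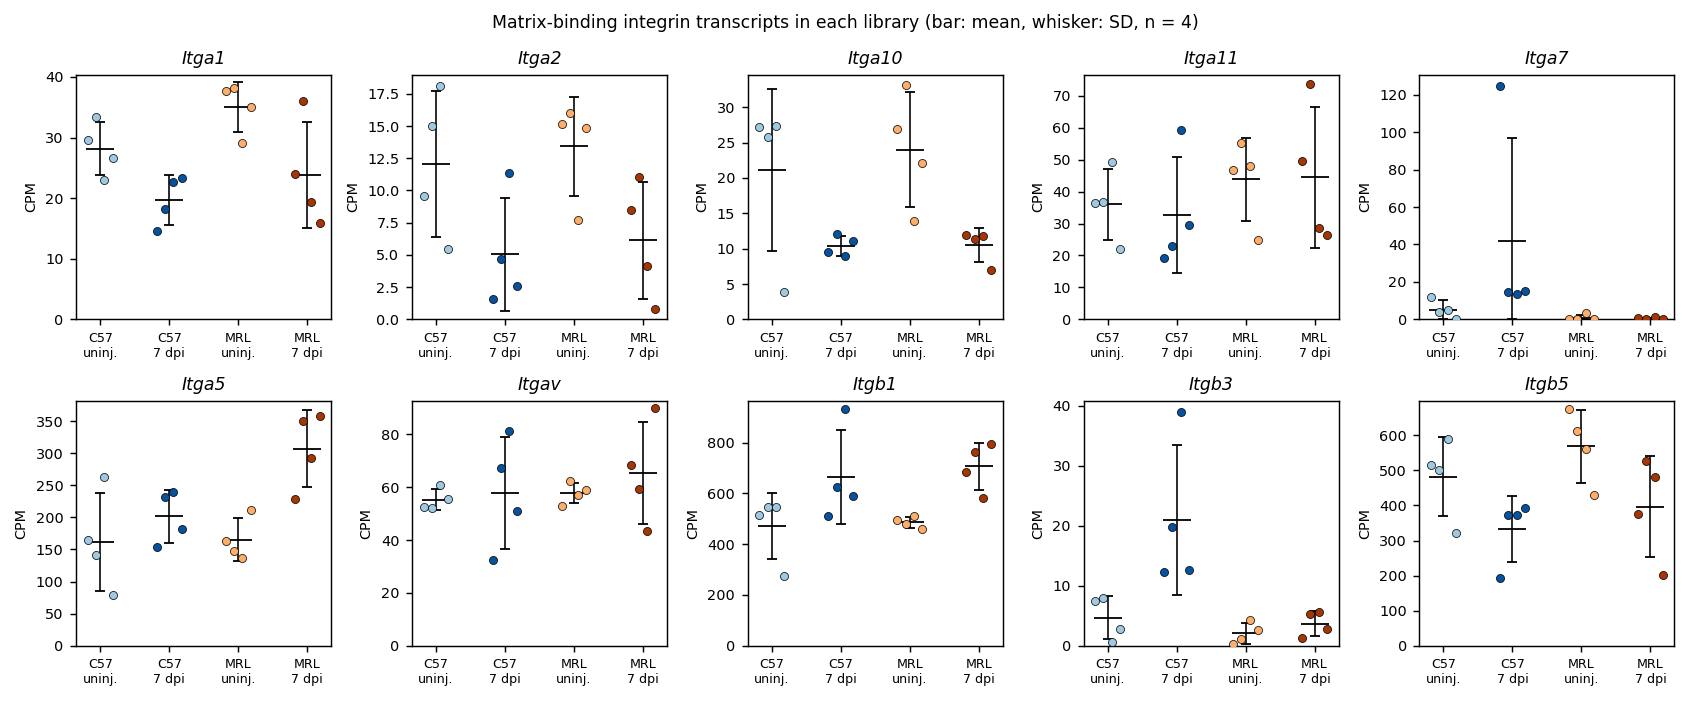
CPM of the 10 integrin chains (y axes from 0) in each library of the 4 groups, with the mean as a bar and the SD as whiskers, of which the lower one of Itga7 in injured C57 tendon is cut at 0. All 4 injured MRL libraries lie above the uninjured MRL libraries for Itga5 and Itgb1 and below them for Itga10, and Itga7 reaches 124.5 CPM in BI-181 alone.

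The response of the C57 tendon to injury was compared first, on the 8 C57 libraries. None of the 10 chains passed an adjusted p of 0.05 in edgeR's quasi-likelihood test, beside 0.929% of 14424 genes called higher and 0.201% called lower. With the further requirement of an absolute log2 fold change over 1 these shares were 0.908% and 0.166%. At an unadjusted p under 0.05, 2 chains were higher and 1 was lower, beside 7.95% and 7.33% of all genes. The 2 higher ones, Itga7 and Itgb3, passed the filter on low counts only through the injured libraries, so this count rests in part on that filter. The median log2 fold change of the 10 chains was -0.05, and that of all genes tested was also -0.05. DESeq2 called 1 of the 10 chains, Itgb3, and 6.22% of all genes in either direction. This call of Itgb3 rests in part on the same filter.

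Itgb3 pairs with Itgav in a receptor for vitronectin and fibronectin, and with Itga2b on platelets. It was measured at 7.42, 7.87, 0.547 and 2.76 CPM in uninjured C57 replicates 1 to 4 and at 12.2, 19.8, 38.9 and 12.6 CPM in BI-181, BI-183, BI-184, BI-185. Every injured library was above every uninjured one. The log2 fold change of Itgb3 was 2.15 (SE 0.749), with an adjusted p of 0.227 by edgeR's quasi-likelihood test. By DESeq2 the adjusted p was 0.0364, and without BI-184, its highest library, the log2 fold change was 1.70 and edgeR's adjusted p 0.415. Groups did not overlap in the upward direction for 2 of the 10 chains, Itgb3 and Itga7, beside 7.11% of all genes, and for none in the downward direction, beside 4.86%. Both Itgb3 and Itga7 passed the filter on low counts here only through the injured C57 libraries, so this count rests in part on that filter.

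Itga7, the laminin receptor chain of skeletal and smooth muscle, was measured at 12.0, 3.84, 4.77 and 0 CPM in the uninjured C57 replicates and at 124.5, 14.7, 13.4 and 15.1 CPM in BI-181, BI-183, BI-184, BI-185. BI-181 stood far above the other 3, which still lay above the uninjured libraries. The log2 fold change was 3.02 (SE 1.29) with an adjusted p of 0.315, and it was 1.52 without BI-181 (adjusted p = 0.644), 3.31 without BI-183 (adjusted p = 0.445) and 1.51 without both (adjusted p = 0.861). BI-181 is also the library with the highest skeletal muscle sum, and BI-184 and BI-185, at 9.64 and 11.7 CPM of muscle markers, had Itga7 levels near that of BI-183. DESeq2 gave no adjusted p for Itga7.

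Markers of other cells are given beside Itga7 and Itgb3 in C57, where 0.929% of all genes were called higher and 0.201% lower. The 8 smooth muscle and pericyte markers summed to 170 to 847 CPM in uninjured and 410 to 4390 CPM in injured C57 tendon, ranges that overlapped, and 1 of the 8 was called higher. The 8 endothelial markers summed to 20.5 to 98.6 CPM and 117 to 204 CPM without overlap, with none of the 8 called by edgeR's test, 6 higher at an unadjusted p under 0.05, 3 called higher by DESeq2 and no marker at 0 in a whole group. The 7 platelet and megakaryocyte markers summed to 68.7 to 143 CPM and 320 to 397 CPM, with 1 called higher and Gp6 at 0 in all 8 libraries, and the 8 macrophage markers to 297 to 797 CPM and 1580 to 2460 CPM, with 4 called higher. The 7 osteoclast markers, whose cells are rich in the Itgav and Itgb3 receptor, summed to 97.1 to 216 CPM in uninjured and 246 to 622 CPM in injured C57 tendon, again without overlap. Of the 5 tested, none was called by edgeR's test, 1 was higher at an unadjusted p under 0.05 and DESeq2 called 1 higher, with Calcr at 0 in all uninjured C57 libraries. The 7 Schwann cell markers summed to 484 to 1640 CPM and 931 to 2120 CPM, which overlapped, and of 5 tested none was called by edgeR's test or DESeq2 and 2 were higher at an unadjusted p under 0.05. Within the injured C57 libraries the macrophage sums were 1575, 2457, 2461 and 2433 CPM in BI-181, BI-183, BI-184, BI-185. They were nearly equal in BI-183, BI-184 and BI-185, where Itgb3 spanned 12.6 to 38.9 CPM. The platelet and osteoclast sums were lowest in BI-181 and highest in BI-183. The smooth muscle, endothelial and Schwann cell sums were lowest in BI-184 and highest in BI-181. The part of these cells in the levels of Itga7 and Itgb3 was not tested.

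None of the 4 collagen-binding chains passed the test in C57. On the log2 scale the change was -0.53 for Itga1 (SE 0.232, adjusted p = 0.324), -1.26 for Itga2 (SE 0.654, adjusted p = 0.396), -1.02 for Itga10 (SE 0.520, adjusted p = 0.388) and -0.15 for Itga11 (SE 0.385, adjusted p = 0.904). The sign of Itga11 turned when any of 3 single libraries was removed, with a value of 0.076 without BI-181. For Itga10 the uninjured C57 replicates 1 to 3 had 27.3, 25.8 and 27.3 CPM, replicate 4 had 3.935 CPM, and the injured libraries had 9.01 to 12.1 CPM. Replicate 4, the library rich in epidermal markers, was thus below every injured library and the other 3 were above. Without it the log2 fold change of Itga10 was -1.37 with an adjusted p of 0.0096, and it was the only chain called, while the share of all genes called in either direction was 6.26%, against 1.13% with all 8 libraries. Without both replicate 4 and BI-181, Itga10 (log2 fold change -1.27, adjusted p = 0.0109) and Itgb5 (-0.44, adjusted p = 0.0463) were called lower, as 2 of 10 chains beside 8.55% of all genes. The 8 cartilage markers summed to 11300 to 30200 CPM in uninjured C57 tendon, lowest in replicate 4, and 7300 to 15100 CPM in injured. Of 7 tested, 5 were lower and 2 higher (median log2 fold change -0.34), 3 lower at an unadjusted p under 0.05. None was called by edgeR's test and 2 were lower by DESeq2. Their part in the level of Itga10 in C57 was not tested.

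The fibronectin-binding chain Itga5 had a log2 fold change of 0.31 in C57 (95% confidence interval -0.447 to 1.07, adjusted p = 0.714). For Itgav it was 0.05 (-0.55 to 0.66, adjusted p = 0.949) and for the common beta chain Itgb1 0.49 (-0.153 to 1.13, adjusted p = 0.447). Itgb5, the vitronectin-binding beta chain, had -0.54 (-1.17 to 0.0893, adjusted p = 0.392). These 4 intervals all include 0. With 1 library left out, Itga5 ranged from 0.086 (without uninjured replicate 4) to 0.64 (without uninjured replicate 3) and Itgb1 from 0.31 (without uninjured replicate 4) to 0.64 (without BI-181). Itgb5 ranged from -0.69 (without uninjured replicate 4) to -0.31 (without BI-181), and Itgav from -0.12 (without BI-184) to 0.29 (without BI-181).

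In MRL, injury was compared on the 8 MRL libraries. Itga5 and Itgb1 rose and Itga10 fell, 3 of the 9 chains tested at an adjusted p under 0.05, beside 7.73% of 14274 genes called higher and 3.36% called lower. At an unadjusted p under 0.05 the same 3 chains were found, beside 16.3% and 12% of all genes. With the further requirement of a log2 fold change beyond 1 in either direction, Itga10 alone was called, beside 5.25% of genes higher and 2.15% lower. The median log2 fold change was 0.03 over the 9 chains and -0.03 over all genes. Itga7 did not pass the filter on low counts and was not tested within MRL.

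Itga5 is the alpha chain of the main fibronectin receptor, in which Itgb1 is its partner. It lies on the minus strand at chr15:103344286-103366763 (GRCm38). Uninjured MRL replicates 1 to 4 had 163.6, 147.3, 136.0 and 212.1 CPM, and BI-270, BI-272, BI-274, BI-275 had 228.0, 350.2, 292.8 and 357.1 CPM. The groups did not overlap, although BI-270 was close to uninjured replicate 4. The log2 fold change was 0.90 (SE 0.195), 1.87-fold, with an adjusted p of 0.0171 by edgeR's quasi-likelihood test and 0.000405 by DESeq2.

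Itgb1, on the plus strand at chr8:128685654-128733200, rose with less spread in the uninjured group. Uninjured MRL replicates 1 to 4 had 493.5, 479.2, 512.6 and 457.9 CPM, and BI-270, BI-272, BI-274, BI-275 had 686.1, 763.8, 582.2 and 792.8 CPM. All injured libraries were above all uninjured ones. The log2 fold change was 0.55 (SE 0.147), 1.46-fold, with an adjusted p of 0.039 by edgeR's quasi-likelihood test and 0.00275 by DESeq2.

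Itga10, at chr3:96645584-96664519 on the plus strand, was the chain that fell. It had 26.9, 33.2, 13.9 and 22.1 CPM in uninjured MRL replicates 1 to 4 and 12.0, 11.4, 11.7 and 6.935 CPM in BI-270, BI-272, BI-274, BI-275. All injured libraries were below all uninjured ones, with uninjured replicate 3 the nearest. The log2 fold change was -1.18 (SE 0.308), with an adjusted p of 0.0349 by edgeR's quasi-likelihood test and 0.00471 by DESeq2. The gene Gm42957 of the same strand shares 33.5% of the exon bases of Itga10 and had at most 10 counts in a library, so reads in the shared exons may have been left out or split in counting.

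The chains whose groups did not overlap were 2 of 10 upward, beside 13.3% of genes tested, and 1 of 10 downward, beside 9.45%. The 8 cartilage markers, among them collagen II, a ligand of the Itga10 receptor, summed to 24700 to 32200 CPM in uninjured and 9400 to 22100 CPM in injured MRL tendon. Most of that difference was Chad, at 10600 to 22300 CPM and 2100 to 6790 CPM, and over the 7 tested 3 log2 fold changes were positive and 4 negative (median -0.08), with collagen II (Col2a1) at 0.57 (adjusted p = 0.733). None was at 0 in a whole MRL group, and 1 of 7 was called higher (Acan) and 1 lower (Chad), both named after their values were seen. Their part in the level of Itga10 was not tested. The tenocyte markers summed to 57300 to 85700 CPM and 64900 to 102000 CPM, with 1 of 9 called higher.

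Markers of other cells also differed between injured and uninjured MRL tendon, where 7.73% of all genes were called higher and 3.36% lower. The macrophage markers summed to 351 to 572 CPM in uninjured and 590 to 1310 CPM in injured MRL tendon, with 2 of 8 called higher. The osteoclast markers summed to 166 to 212 CPM and 440 to 681 CPM, with 3 of 5 called higher and Calcr at 0 in all 8 libraries. The platelet and megakaryocyte markers summed to 42.6 to 97.4 CPM and 116 to 275 CPM, with 2 of 4 called higher and Gp9 and Gp6 at 0 in all 8. None of these 3 sums overlapped, and 1 call of the osteoclast list (Dcstamp) and 1 of the platelet list (Ppbp) passed the filter on low counts only through the injured libraries. The Schwann cell markers had lower sums after injury, 576 to 1040 CPM against 1230 to 1410 CPM, with none of 5 called by edgeR's test, 1 lower at an unadjusted p under 0.05 and 1 lower by DESeq2. The endothelial sums (1.99 to 80.1 CPM and 1.48 to 32.0 CPM) and the smooth muscle and pericyte sums (276 to 399 CPM and 213 to 332 CPM) overlapped, with none called in either list by edgeR's test or DESeq2 and, at an unadjusted p under 0.05, no endothelial marker and 1 smooth muscle marker, which was lower. The part of these cells in the levels of Itga5, Itgb1 and Itga10 was not tested.

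These 3 calls were close to the threshold. Without 1 library, the adjusted p of Itga5 by edgeR's quasi-likelihood test was 0.0511 without BI-272 and 0.0542, 0.0544 and 0.0541 without uninjured replicates 1, 2 and 3, and it stayed under 0.05 without any of the other 4 libraries. That of Itga10 stayed under 0.05 only without uninjured replicate 3 (0.0259) and was 0.0573, 0.0793, 0.0527 and 0.0635 without BI-270, BI-272, BI-274, BI-275 and 0.0947, 0.103 and 0.0683 without uninjured replicates 1, 2 and 4. That of Itgb1 stayed under 0.05 without BI-274 (0.0225) or BI-275 (0.0432) and was 0.0793 and 0.0948 without BI-270 and BI-272 and 0.101, 0.0976, 0.0839 and 0.0681 without uninjured replicates 1 to 4. In 1 fit over all 16 libraries the adjusted p was 0.0724 for Itga5, 0.119 for Itga10 and 0.162 for Itgb1, and none of the 10 chains was called.

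The other chains did not pass the test in MRL. On the log2 scale the change was -0.55 for Itga1 (adjusted p = 0.183), -1.12 for Itga2 (adjusted p = 0.264), 0.03 for Itga11 (adjusted p = 0.966), 0.19 for Itgav (adjusted p = 0.609), 0.83 for Itgb3 (adjusted p = 0.547) and -0.52 for Itgb5 (adjusted p = 0.232). Itgb3 was low in both groups, at 0.265, 1.16, 4.30 and 2.55 CPM in uninjured replicates 1 to 4 and 1.24, 5.22, 5.601 and 2.72 CPM in BI-270, BI-272, BI-274, BI-275. These groups overlapped. Itga7 had 2, 2, 55 and 0 counts in uninjured MRL replicates 1 to 4 and 17, 6, 24 and 0 counts in the injured libraries, with 3 of the 4 uninjured libraries below the floor of 3 counts.

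**Figure D2:**
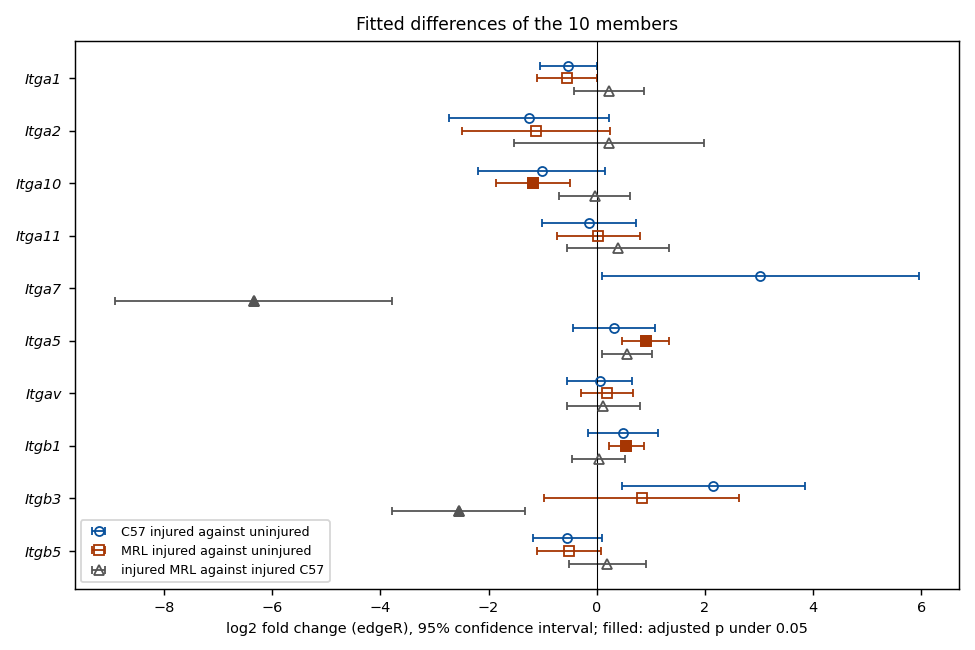
Log2 fold change (x axis) of each chain for injured against uninjured C57 tendon (circles), injured against uninjured MRL tendon (squares) and injured MRL against injured C57 tendon (triangles), with 95% confidence intervals and filled symbols where the adjusted p was under 0.05. The filled symbols are Itga5 at 0.90, Itgb1 at 0.55 and Itga10 at -1.18 in MRL, and Itga7 at -6.34 and Itgb3 at -2.55 between the injured strains.

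The 250 bases upstream of the start of Itga5 and Itgb1, the pair that rose together in MRL, are shown beside those of Itgb5, which was not called. In uninjured tendon the levels of Itgb5 and Itgb1 per kilobase overlapped and that of Itga5 was lower, so Itgb5 is not matched to Itga5 in level. They are from RefSeq on GRCm38.p6, read 5′ to 3′ on the strand of the gene, and capitals mark the letters GGGCGG, the core of a GC box, on either strand. The windows are chr15:103366792-103367041 (minus strand) for Itga5, chr8:128685404-128685653 (plus strand) for Itgb1 and chr16:33829415-33829664 (plus strand) for Itgb5.
Itga5: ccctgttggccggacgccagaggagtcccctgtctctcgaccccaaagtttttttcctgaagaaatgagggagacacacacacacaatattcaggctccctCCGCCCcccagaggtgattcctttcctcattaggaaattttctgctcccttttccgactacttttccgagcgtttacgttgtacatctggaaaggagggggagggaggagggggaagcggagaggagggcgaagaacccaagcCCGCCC
Itgb1: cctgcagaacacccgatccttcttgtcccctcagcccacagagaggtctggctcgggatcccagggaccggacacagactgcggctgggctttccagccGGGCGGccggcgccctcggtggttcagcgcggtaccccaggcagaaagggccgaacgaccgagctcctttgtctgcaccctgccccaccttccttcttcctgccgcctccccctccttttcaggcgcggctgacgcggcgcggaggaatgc
Itgb5: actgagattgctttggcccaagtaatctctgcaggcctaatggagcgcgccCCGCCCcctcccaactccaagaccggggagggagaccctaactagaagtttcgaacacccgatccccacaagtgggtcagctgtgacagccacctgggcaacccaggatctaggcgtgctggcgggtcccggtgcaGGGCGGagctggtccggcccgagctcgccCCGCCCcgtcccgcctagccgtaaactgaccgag

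The window of Itga5 held 2 matches, that of Itgb1 held 1 and that of Itgb5 held 3. Of the 10 chains 8 had a promoter in the table used (all but Itga7 and Itgb3), and 3 of the 8 held the letters, beside 32.7% of 32851 promoters in windows of the same length. The core of a Smad box, CAGAC on either strand, was in 3 of the 8 (Itgb1, Itga2 and Itga1), beside 42.2% of all, and neither an AP-1 site, TGACTCA, nor a TATA box, TATAAA, was in any, beside 4.46% and 12.4%. The letters of none of the 4 motifs contain those of another. The G and C content was 55.6% in the window of Itga5, 68.0% in that of Itgb1 and 65.2% in that of Itgb5, with a median of 52.4% over all promoters. A match of letters says nothing of whether a factor binds there.

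The difference between the strains' responses was tested itself, over all 16 libraries, as the MRL change minus the C57 change. Both injury comparisons enter it with the same libraries. No chain passed, and no gene among 15947 did (0% in either direction, smallest adjusted p = 0.293), with 1939 genes and none of the 10 chains at an unadjusted p under 0.05 (6.92% of genes with a positive and 5.24% with a negative difference). DESeq2 called 128 genes and none of the chains. The difference in log2 fold change was 0.01 for Itgb1 (95% confidence interval -0.675 to 0.686), 0.54 for Itga5 (-0.321 to 1.4), -0.21 for Itga10 (-1.53 to 1.11), -1.38 for Itgb3 (-3.75 to 0.999) and -3.84 for Itga7 (-8.16 to 0.47, adjusted p = 0.466, and -2.33 without BI-181). With 1 library left out, Itga7 ranged from -4.69 (without uninjured C57 replicate 1) to -0.68 (without uninjured MRL replicate 3). Itgb3 ranged from -1.76 (without uninjured C57 replicate 2) to -0.73 (without uninjured MRL replicate 3). A called change in MRL and none in C57 was therefore not shown to differ between the strains, and the intervals leave room for differences of more than 1 log2 unit for each of these chains except Itgb1.

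Before injury the strains were not told apart by any chain. In the 8 uninjured libraries none of the 10 passed edgeR's test, none had an unadjusted p under 0.05, and none passed DESeq2, beside 0% of 14055 genes called by edgeR in either direction, 1106 genes at an unadjusted p under 0.05 (3.87% higher and 4% lower in MRL) and 77 genes called by DESeq2. The groups overlapped for all 10 chains, beside 2.92% of genes higher and 2.08% lower. The log2 difference, MRL minus C57, had its narrowest interval for Itgav at 0.05 (95% confidence interval -0.265 to 0.366) and was 0.04 for Itgb1 (-0.451 to 0.529), 0.02 for Itga5 (-0.699 to 0.744), 0.23 for Itgb5 (-0.264 to 0.721) and 0.30 for Itga1 (-0.125 to 0.731). The widest was that of Itga7, at -2.50 (-6.25 to 1.25, adjusted p = 0.72). With 1 library left out, the difference of Itga7 ranged from -5.64 (without uninjured MRL replicate 3) to -1.66 (without uninjured C57 replicate 1).

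At 7 dpi, injured MRL tendon had less Itga7 and less Itgb3 than injured C57 tendon. These were 2 of the 10 chains, both lower, beside 2.02% of 14626 genes called lower and 1.85% called higher, and the same 2 passed with a log2 difference beyond 1 (1.88% and 1.55% of genes). At an unadjusted p under 0.05, 1 chain was higher and 2 were lower, beside 9.99% and 11.2% of genes. No chain was called higher in MRL, where Itga5 had a log2 difference of 0.55 (SE 0.208, adjusted p = 0.166). The median log2 difference was 0.16 over the 10 chains and -0.06 over all genes. These libraries are those of the injury comparisons above. Itga7 passed the filter on low counts here only through the injured C57 libraries, so its call and the count of 2 rest in part on that filter. Itgb3 alone was called when at least 10 counts were required in every library (adjusted p = 0.0274), where Itga7 was not tested.

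Itga7, at chr10:128933818-128958282 on the plus strand, had 0.700, 0.275, 1.07 and 0 CPM in BI-270, BI-272, BI-274, BI-275, against 124.5, 14.7, 13.4 and 15.1 CPM in the injured C57 libraries. The lowest injured C57 library was more than 10 CPM above the highest MRL library. The log2 difference was -6.34 (SE 1.14), with an adjusted p of 0.0176 by edgeR's quasi-likelihood test, and a fitted value of this size rests on MRL counts of 0 to 24. Without BI-181 it was -4.83 (adjusted p = 0.0244), without BI-183 -6.62 (adjusted p = 0.0281) and without both -4.82 (adjusted p = 0.106). Without BI-270 or BI-272 the adjusted p was 0.0642 or 0.0807, in 1 fit over all 16 libraries 0.061, and DESeq2 gave none.

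Itgb3, at chr11:104608000-104670476 on the plus strand, had 1.24, 5.22, 5.601 and 2.72 CPM in BI-270, BI-272, BI-274, BI-275 and 12.2, 19.8, 38.9 and 12.6 CPM in the injured C57 libraries. These groups did not overlap either, and lower values without overlap were found for 2 of the 10 chains, beside 7.41% of genes, and higher ones for none, beside 8.92%. The log2 difference was -2.55 (SE 0.551), with an adjusted p of 0.0321 by edgeR's quasi-likelihood test and 9.31e-05 by DESeq2. By edgeR it stayed under 0.05 without BI-181 (0.0388) or BI-274 (0.0491) and was 0.0738, 0.077 and 0.0602 without BI-183, BI-184 and BI-185 and 0.0567, 0.0734 and 0.0839 without BI-270, BI-272 and BI-275. In 1 fit over all 16 libraries it was 0.104, and without both BI-181 and BI-183 it was 0.116 at a log2 difference of -2.85.

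Markers of endothelium, smooth muscle and macrophages also had lower sums in injured MRL than in injured C57 tendon. Of all genes, 2.02% were called lower and 1.85% higher between these groups. The endothelial markers summed to 1.48 to 32.0 CPM in injured MRL and 117 to 204 CPM in injured C57 tendon, and 2 of the 8 were called lower (Pecam1 and Egfl7). The smooth muscle and pericyte markers summed to 213 to 332 CPM against 410 to 4390 CPM, with 4 of 8 called lower, and the macrophage markers to 590 to 1310 CPM against 1580 to 2460 CPM, with 4 of 8 called lower. Of the called markers, Pecam1 (2 to 171 counts in injured MRL libraries) and the pericyte marker Mcam (0 to 26 counts) passed the filter on low counts only through injured C57, so the counts of 2 and 4 rest in part on that filter. The Schwann cell markers summed to 576 to 1040 CPM in injured MRL and 931 to 2120 CPM in injured C57 tendon, which overlapped. All 6 tested were lower in MRL (median log2 difference -2.04), 4 of them at an unadjusted p under 0.05, and 1 was called, Sox10, which also passed the filter only through injured C57. The platelet and megakaryocyte markers had no common direction, with 3 of the 5 tested lower, 2 higher and none called by edgeR's test, which found 1 lower at an unadjusted p under 0.05. Their sum, 116 to 275 CPM against 320 to 397 CPM, was mostly Pf4, at 101 to 265 CPM against 306 to 379 CPM, whereas Ppbp had a median of 3.28 CPM against 1.13 CPM, with Gp9 and Gp6 at 0 in all injured MRL libraries. The skeletal muscle markers summed to 7.97 to 13.7 CPM against 9.64 to 82220 CPM, with Myh1, Myh2, Myh4 and Tnnc2 at 0 in all injured MRL libraries. The osteoclast markers overlapped at 440 to 681 CPM and 246 to 622 CPM. The tenocyte markers had higher sums in injured MRL tendon, 64900 to 102000 CPM against 31400 to 54200 CPM. All 9 were higher, 6 at an unadjusted p under 0.05, with 1 called by edgeR's test and 5 by DESeq2. The cartilage sums overlapped, at 9400 to 22100 CPM and 7300 to 15100 CPM. Of 7 tested, 5 were higher and 2 lower, with 1 called higher by edgeR's test and 4 by DESeq2. The part of these cells in the levels of Itga7 and Itgb3 was not tested.

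**Figure D3:**
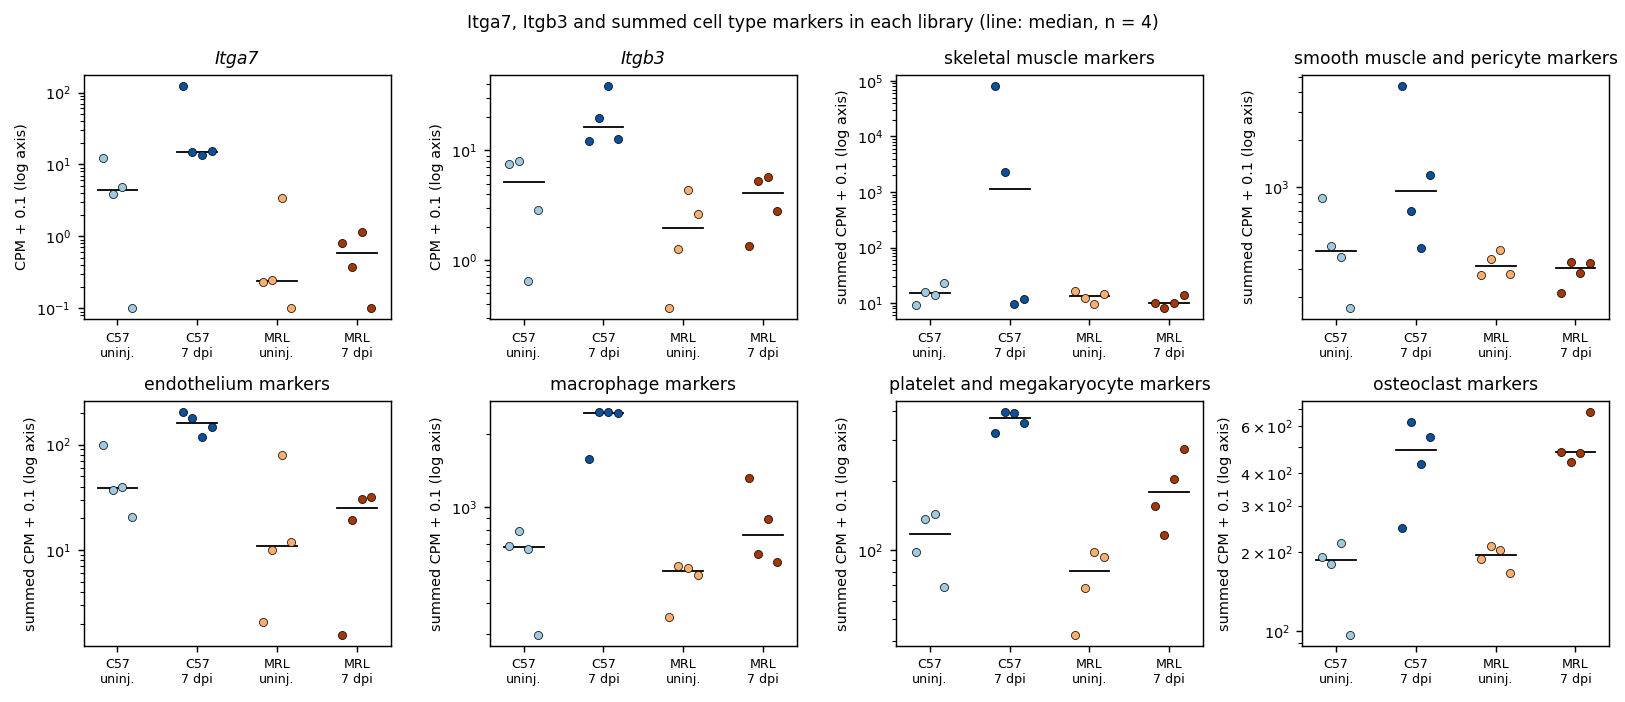
Itga7 and Itgb3 and the summed markers of 6 cell types in each library, as CPM plus 0.1 on log axes, with the median of each group as a line. The 4 injured C57 libraries lie above the 4 injured MRL libraries for Itga7, Itgb3 and the endothelial, smooth muscle, macrophage and platelet sums, while the osteoclast sums overlap.

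The balance of the beta chains differed between injured and uninjured tendon in both strains. Itgb1 is the partner of many alpha chains and Itgb5 of Itgav alone, and per kilobase Itgb5 exceeded Itgb1 in all 8 uninjured libraries and was below it in all 8 injured ones. The ratio of Itgb5 to Itgb1 was 1.2 ± 0.122 (range 1.05 to 1.34) in uninjured and 0.586 ± 0.163 (0.437 to 0.765) in injured C57 tendon. It was 1.34 ± 0.22 (1.08 to 1.57) in uninjured and 0.666 ± 0.282 (0.292 to 0.95) in injured MRL tendon. This ratio was chosen after the values were seen and is given without a test.

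**Figure D4:**
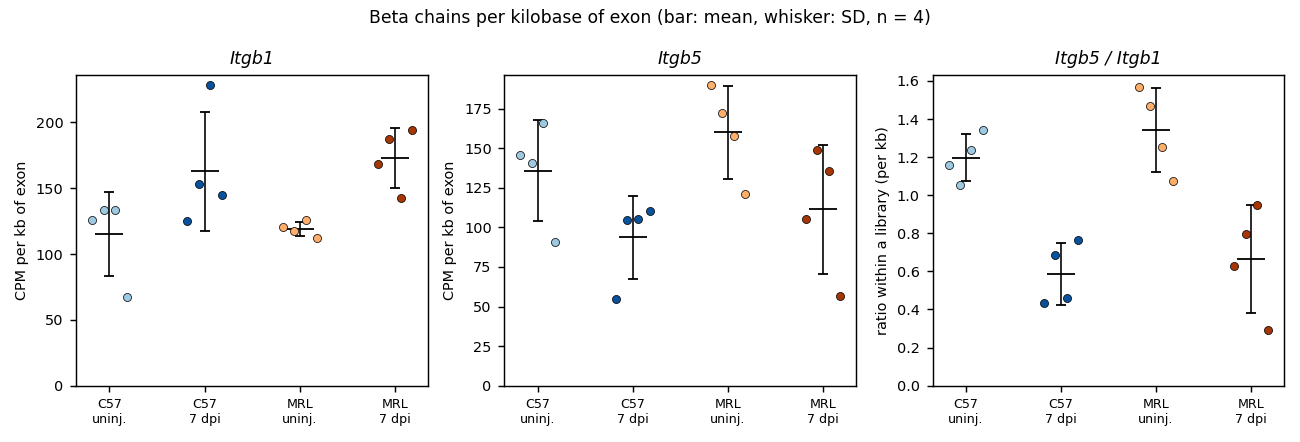
Itgb1 and Itgb5 in CPM per kb of exon and their ratio within each library (y axes from 0), with the mean as a bar and the SD as whiskers (n = 4). The ratio lies at 1.05 or above in all uninjured libraries and at 0.95 or below in all injured ones.

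Itgb5 itself, at chr16:33829665-33949338 on the plus strand, had 516.8, 500.9, 588.9 and 322.5 CPM in uninjured C57 replicates 1 to 4 and 193.7, 372.7, 373.7 and 392.6 CPM in BI-181, BI-183, BI-184, BI-185. In MRL it had 674.4, 611.8, 560.0 and 429.3 CPM in uninjured replicates 1 to 4 and 374.9, 528.0, 481.4 and 201.7 CPM in BI-270, BI-272, BI-274, BI-275. Injured and uninjured libraries overlapped in both strains. The lowest injured libraries were BI-181 and BI-275.

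Itgav, at chr2:83724397-83806916 on the plus strand, was measured in uninjured tendon at 52.3 to 61.0 CPM in C57 and 53.1 to 62.4 CPM in MRL, and spanned 32.3 to 81.2 CPM and 43.5 to 89.8 CPM in injured C57 and MRL tendon. Itga11, at chr9:62677826-62783982 on the plus strand, spanned 22.0 to 49.1 CPM uninjured and 19.4 to 59.3 CPM injured in C57, and 24.99 to 55.4 CPM and 26.3 to 73.7 CPM in MRL. Its highest libraries, BI-184 and BI-272, also had the most Itga2 of their groups, at 11.3 and 11.1 CPM.

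Itga1 and Itga2 are neighbours on the minus strand of chromosome 13, at chr13:114953096-115101964 and chr13:114833081-114932100. Itga1 had 23.0 to 33.3 CPM uninjured and 14.6 to 23.3 CPM injured in C57, where the ranges overlapped slightly, and 29.1 to 38.1 CPM and 15.9 to 36.0 CPM in MRL. Itga2, best known as the collagen receptor chain of platelets and epithelia, had 5.44 to 18.1 CPM and 1.56 to 11.3 CPM in C57 and 7.70 to 16.01 CPM and 0.832 to 11.1 CPM in MRL. Both chains had negative log2 fold changes in both strains, and neither passed the test in either.

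For the 4 chains with the smallest p in the injury comparisons, the genes most alike in pattern were sought among 11185 genes by the root mean square difference of centred log2 CPM over the 16 libraries, in log2 units. They were Surf4 (0.235), Pmepa1 (0.235) and Rfc5 (0.25) for Itga5, whose own SD over the libraries was 0.549. For Itgb1 (SD 0.385) they were Ssr3 (0.152), Sdcbp (0.169) and Ywhah (0.18). Itga10 (SD 0.819) was nearest to Radil (0.285), Cry2 (0.307) and Hoxd11 (0.318), and Itgb3 (SD 1.72) to Nid1 (0.913), Lrrc32 (0.962) and Efemp1.

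Of the 16 other integrin chains, 13 were tested in each strain. Itgb2, the beta chain of leukocytes, rose in C57 with a log2 fold change of 2.35 (SE 0.442, adjusted p = 0.0471), as the only one called there, against a median of 0.86 for the 13. Of all genes, 0.929% were called higher in C57. In MRL, beside 7.73% of all genes called higher and 3.36% called lower, 3 of 13 rose and none fell (median 0.39). They were Itgb2 at 2.32 (SE 0.318, adjusted p = 0.00252) and its myeloid partners Itgam at 1.23 (SE 0.279, adjusted p = 0.0209) and Itgax, which had 0 to 1 counts in uninjured and 42 to 367 counts in injured MRL libraries. Itgax passed the filter on low counts only through the injured libraries, so its call rests in part on that filter. The call of Itgb2 in C57 held without uninjured replicate 4 (adjusted p = 0.00686) and was lost without any 1 of the other 7 libraries (0.0803 to 0.139). That of Itgam in MRL was lost without BI-270 (0.0567) and without uninjured replicates 1 (0.0524) and 2 (0.0553). Between the injured strains, beside 2.02% of all genes called lower, 2 of 13 were lower in MRL. They were Itga6 at a log2 difference of -1.97 (SE 0.318, adjusted p = 0.00976) and Itgb4 at -4.91 (SE 0.876, adjusted p = 0.015), which form a laminin receptor of epithelia, and Itgb4 was named after its values were seen. Itgb4 had 1 to 26 counts in injured MRL libraries and passed the filter only through injured C57, so its call and the count of 2 rest in part on that filter, and its adjusted p was 0.0531 without BI-185.

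Of 32 genes of the adhesion complex that couples integrins to actin, 30 were tested in each strain. Fermt3, the kindlin of blood cells, was the only one called in C57, at a log2 fold change of 1.78 (SE 0.249, adjusted p = 0.0175), and the median of the 30 was 0.30. Of all genes, 0.929% were called higher and 0.201% lower there. Beside 7.73% of all genes called higher and 3.36% called lower in MRL, 4 of the 30 rose and 2 fell (median 0.10). Among them were the actin crosslinkers Actn1 at 1.76 (SE 0.217, adjusted p = 0.00172) and Actn4 at 0.70 (SE 0.164, adjusted p = 0.0242), the actin-filament factor Vasp at 1.32 (SE 0.21, adjusted p = 0.00469) and the tensin Tns2 at -0.90 (SE 0.195, adjusted p = 0.0175). Fermt3 lost its call without each library except BI-181 and uninjured replicate 4 (adjusted p 0.0572 to 0.0876). In MRL the adjusted p of Tns2 was 0.0588, 0.0511 and 0.0513 without uninjured replicates 1, 2 and 3, and that of Actn4 was 0.0715 without BI-272 and 0.0609, 0.0739 and 0.0507 without uninjured replicates 1, 2 and 4. Between the injured strains 1 of 30 was lower in MRL, beside 2.02% of all genes. It was Lims2 at -2.02 (SE 0.416, adjusted p = 0.0276), named after its values were seen. Without BI-183, BI-185, BI-270 or BI-272 its adjusted p was 0.0679, 0.081, 0.0559 or 0.0738.

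None of the laminin chains, the ligands of Itga7, passed edgeR's test in either strain, with 10 tested in C57 (median log2 fold change 0.25) and 9 in MRL (median -0.67). At an unadjusted p under 0.05, 3 were higher and 1 lower in C57 and 1 was lower in MRL, and DESeq2 called 2 higher and 1 lower in C57 and 1 lower in MRL. Lamc1, the gamma chain of most laminins, had log2 fold changes of 1.51 in C57 (adjusted p = 0.0665, and 0.00982 without uninjured replicate 4) and 0.31 in MRL (adjusted p = 0.219). Between the injured strains it was the 1 laminin chain of 10 called, beside 2.02% of all genes called lower. It was lower in MRL by a log2 difference of -1.08 (SE 0.199, adjusted p = 0.0167). Without BI-183 or BI-272 the adjusted p was 0.053 or 0.0627. In the test of the difference between the strains' responses none of 10 laminin chains passed edgeR's test or DESeq2, and at an unadjusted p under 0.05 1 had a positive and 5 a negative difference (median -1.12), with Lamc1 at -1.25 (SE 0.374, adjusted p = 0.333). The other integrin chains had 1 positive and 1 negative difference at that level among 15 (DESeq2 called 1), the adhesion complex 1 and 2 among 31 and the fibronectin-type ligands 0 and 1 among 13 (DESeq2 called none of either).

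Of the 13 collagens listed as ligands of Itga1, Itga2, Itga10 and Itga11, 6 rose in MRL by edgeR's test, beside 7.73% of all genes called higher, and 7 did not pass. The median log2 fold change was 0.97, with Col6a3 at 1.84 (SE 0.262, adjusted p = 0.00304), Col5a1 at 1.53 (SE 0.251, adjusted p = 0.00524), Col5a2 at 0.97 (SE 0.196, adjusted p = 0.0129) and Col6a2 at 1.20 (SE 0.257, adjusted p = 0.0165, and 0.0519 without uninjured replicate 2). In C57 none of 13 passed (median 0.62), beside 0.929% of all genes called higher, with 5 higher and 1 lower at an unadjusted p under 0.05 and 4 higher and 1 lower by DESeq2. No collagen passed the test of the difference between the strains' responses, where DESeq2 called none and none of 13 had an unadjusted p under 0.05. Between the injured strains Col4a2, a basement membrane collagen, was the 1 collagen called, beside 2.02% of all genes called lower. It was lower in MRL by a log2 difference of -1.14 (SE 0.191, adjusted p = 0.0116). Of the 13, 9 had a positive and 4 a negative difference (median 0.64), 6 were higher and 2 lower at an unadjusted p under 0.05, and DESeq2 called 5 higher and 2 lower.

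Of 16 ligands of the fibronectin and vitronectin type, 2 of 13 tested rose in C57 (median log2 fold change 1.70) and 5 of 12 rose and 1 fell in MRL (median 1.52). Of all genes, 0.929% were called higher in C57, and 7.73% were called higher and 3.36% lower in MRL. The basement membrane linker Nid1 rose by 2.65 (SE 0.357, adjusted p = 0.0152) and periostin, Postn, by 6.91 (SE 1.25, adjusted p = 0.0466) in C57. In MRL tenascin C, Tnc, rose by 6.67 (SE 0.659, adjusted p = 0.000876), fibrillin, Fbn1, by 1.39 (SE 0.191, adjusted p = 0.0025), and Nid2 by 2.05 (SE 0.422, adjusted p = 0.014). Tnc had 6 to 40 counts in uninjured and 1015 to 3374 counts in injured MRL libraries and passed the filter on low counts only through the injured ones, so its call and the count of 5 rest in part on that filter. Fibronectin, Fn1, the ligand of Itga5, had log2 fold changes of 1.70 in C57 (SE 0.432, adjusted p = 0.109, and 0.034 without uninjured replicate 4) and 1.68 in MRL (SE 0.411, adjusted p = 0.0277). The call in MRL was lost without BI-272 (0.0754), BI-275 (0.0617) or uninjured replicates 1 (0.0856), 2 (0.0748) or 3 (0.0665). Nid1 lost its call in C57 without BI-183 (0.0664), BI-184 (0.052), BI-185 (0.0567) or uninjured replicates 2 (0.0699) or 3 (0.0517), and Postn without each library except BI-181, up to 0.146. Between the injured strains Nid1 was lower in MRL by a log2 difference of -1.88 (SE 0.186, adjusted p = 0.000697), the only ligand of 13 called. Of all genes, 2.02% were called lower there.

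**Figure D5:**
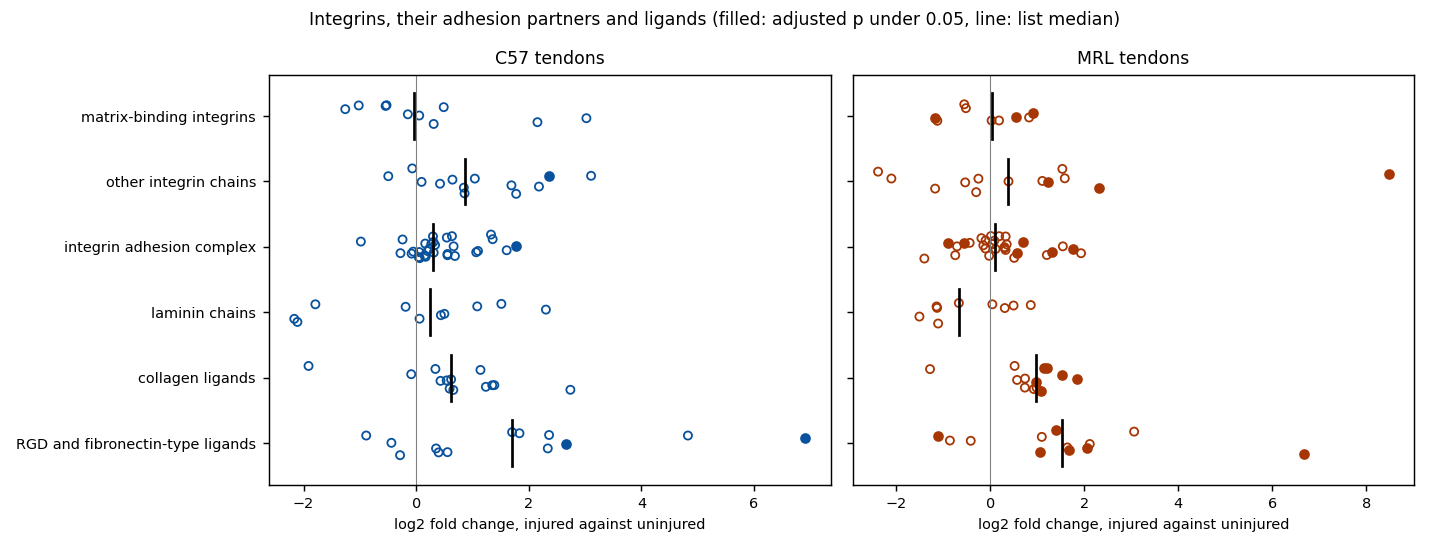
Log2 fold change (x axis) after injury of the genes of 6 lists (rows) in C57 and in MRL, with filled points at an adjusted p under 0.05 and the list median as a line. The matrix-binding integrins have no filled point in C57 and 3 in MRL, and the ligand lists have medians of 1.70 and 1.52 in the last row.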

How the data were processed

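Reads were single-end, 100 nt long, and were mapped by the authors to GRCm38.p5 after trimming. The processing notes of the submitters name Trimmomatic 0.36, STAR 2.5.2b, featureCounts of Subread 1.5.0p3 and DESeq2 1.14.1. The deposited table holds whole-number counts of 16 libraries without normalization. Which gene models were counted, and whether by strand, is not given in the sources used here, so counts of overlapping and antisense genes are uncertain. The labels name a TruSeq kit with 100 ng of RNA, whereas the methods describe 1 ng with pre-amplification. If the latter holds, counting error understates technical error. The methods give 4 animals per group, and p-values measure the spread between these samples. No 2 libraries of a group agreed within sampling noise, so none was merged as a duplicate. This does not show that they are independent.

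Each comparison was fitted alone on its 8 libraries with edgeR 4.0.16 in R 4.3.3 (TMM, edgeR's filter on low counts, robust quasi-likelihood test, Benjamini-Hochberg adjustment over all genes tested). The interaction was fitted over 16 libraries. A difference was called at an adjusted p under 0.05, and a stricter call also required an absolute log2 fold change over 1. CPM used TMM-adjusted library sizes, and log2 CPM a prior count of 2. Gene positions and exon lengths came from GENCODE release M21. The alternatives were DESeq2 1.42.0, upper-quartile factors, total counts, no filter, at least 10 counts in every library, 1 fit over 16 libraries, each library left out, uninjured C57 replicate 4 and BI-181 both left out, the replicate number as a block, and the length of the longest transcript. The counts of the other lists under these settings, and a fit without BI-181 and BI-183, were added after seeing the data. The tests were checked on simulated counts.

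The 10 chains and the lists were chosen with earlier results of these data known. All chains are named. Of each other list, the 4 genes with the smallest unadjusted p in each injury comparison could be named. The 3 genes nearest in pattern were sought for 4 chains among genes of at least 5 CPM on average.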

Additional observations from a re-analysis of the deposited data

Results flagged for a closer look

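In groups of 4, a library was singled out when its gap to the nearest other library divided by the range of the group exceeded Dixon's 95% critical value, a criterion that chance meets in about 1 of 20 groups. Of 40 groups (10 chains in 4 groups) 7 met it. Itga7 had 124.5 CPM in BI-181 against 15.12 CPM in the next injured C57 library, and 3.284 CPM in uninjured MRL replicate 3 against 0.1455 CPM in the next. Itgb5 had 193.7 CPM in BI-181 against 372.7 CPM. Uninjured C57 replicate 4 was low for Itga10, at 3.935 CPM against 25.82 CPM, and for Itgb1, at 276.2 CPM against 513.5 CPM. Itga10 had 6.935 CPM in BI-275 against 11.36 CPM in the next injured MRL library, and Itga2 had 7.702 CPM in uninjured MRL replicate 3 against 14.88 CPM. BI-181 and uninjured C57 replicate 4 are the libraries richest in skeletal muscle and epidermal markers, and uninjured MRL replicate 3 had the highest endothelial sum of its group at 80.1 CPM, against 1.99 to 11.8 CPM in the others. The part of these cells in the levels was not tested.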

How the results depend on the processing

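With at most 4 libraries per group, none of the 5 calls of a chain held under every alternative run. In C57, where no chain was called, DESeq2 called 1 under either criterion, and leaving out both uninjured C57 replicate 4 and BI-181 gave 2 (1 under the stricter criterion). The share of all genes called moved too, from 1.13% to 6.22% with DESeq2 and 8.55% without both libraries. Leaving out 1 library gave 0 to 1. In MRL the 3 calls (1 under the stricter criterion) became 0 in 1 fit over 16 libraries (6.83% of all genes, against 11.1%) and 0 to 2 (0 to 1) with 1 library left out. Between the injured strains the 2 calls, beside 3.87% of all genes, became 1 with DESeq2 (10.9%), 1 without a filter (1.99%), 1 with at least 10 counts in every library (3.57%, Itga7 not tested), 0 in 1 fit over 16 libraries (1.81%), 0 without both BI-181 and BI-183 (0.695%), and 0 to 2 with 1 library left out. The difference between responses and the uninjured strains gave 0 calls under every alternative run.

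Total counts in place of TMM moved the median log2 difference of all genes between the injured strains from -0.06 to -0.20, after injury in C57 from -0.05 to 0.08, and for the interaction from -0.03 to -0.14. Signs of small differences then turned: in the interaction Itga2 (-0.038), Itgav (-0.058) and Itgb1 (-0.10), between the uninjured strains Itga5 (-0.027) and Itgb1 (-0.018), and between the injured strains Itgav (-0.017) and Itgb1 (-0.10). Without both uninjured C57 replicate 4 and BI-181 the interaction of Itga10 was 0.082 and that of Itgav -0.14. Without both BI-181 and BI-183, chosen after seeing the data, signs turned for Itga11 in C57 (0.33), for Itga2 (-0.36), Itga11 (-0.30), Itgav (-0.10) and Itgb1 (-0.18) in the interaction, and between the injured strains for Itga1 (-0.0048), Itga2 (-0.23), Itga10 (0.0095), Itga11 (-0.047), Itgav (-0.071), Itgb1 (-0.16) and Itgb5 (-0.0048). With 1 library left out, signs turned within these ranges: in C57 Itga11 from -0.57 to 0.076 and Itgav from -0.12 to 0.29, in MRL Itga11 from -0.30 to 0.21 and Itgav from -0.0077 to 0.35. In the interaction they were Itga1 from -0.34 to 0.074, Itga2 from -0.36 to 0.86, Itga10 from -0.40 to 0.14, Itga11 from -0.22 to 0.59, Itgav from -0.13 to 0.28, Itgb1 from -0.11 to 0.22 and Itgb5 from -0.22 to 0.19. Between the uninjured strains they were Itga2 from -0.081 to 0.42, Itga5 from -0.20 to 0.36, Itga10 from -0.16 to 0.38 and Itgb1 from -0.14 to 0.13, and between the injured strains Itga2 from -0.17 to 1.00, Itga10 from -0.11 to 0.17, Itgav from -0.080 to 0.33 and Itgb1 from -0.074 to 0.24. The cause was not tested.

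Only the uninjured libraries carry replicate numbers. Deviations of same-numbered C57 and MRL libraries correlated at -0.19, -0.03, -0.10 and -0.24. They gave no sign of pairing by number. With a library as different in tissue as uninjured C57 replicate 4 among them, they cannot exclude it. With the replicate number as a block, 0 of 10 chains were called, as without it. By the longest transcript in place of all exon bases, the first 3 places were the same, while lower places changed. In injured C57 tendon Itga7 moved from place 6 to 4 and Itga11 from 4 to 6. Itgav passed Itga11 in uninjured C57 and injured MRL tendon. Itga1 passed Itga2 in the uninjured tendons of both strains and Itga10 in injured MRL tendon. Itga7 passed Itgb3 in uninjured C57 tendon. The floor of 3 counts limits Itga7 in MRL.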
